A study of Mus musculus with 21 samples.

Results

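The genes described here are 9 members of the BCL2 family, Bcl2, Bcl2l1, Mcl1, Bcl2a1b, Bcl2l11, Bad, Bid, Bax and Bak1, taken by their symbols from a table of 30733 genes. All 9 are in the table. They were chosen by name as regulators of mitochondrial cell death. RNA was counted in 21 libraries of mouse bone marrow cells that carried a knockout of Stag2 (KO), a cohesin subunit, or were wild type (WT). The sorted populations were LSK, a marrow fraction rich in stem and multipotent progenitor cells (KO n = 3, WT n = 4), GMP, the progenitors of granulocytes and monocytes (KO n = 4, WT n = 3), and CFU-E, late progenitors of red cells (KO n = 4, WT n = 3). Per the labels, all groups share a depletion of lineage-positive marrow cells on magnetic beads, a sort, and TRIzol extraction. The labels name neither the driver of the deletion nor the strain, age or sex of the mice. They also do not say that replicates are different mice, and a p-value therefore reflects only how much these libraries vary, in part perhaps for technical reasons.

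BCL2 family proteins decide whether the outer mitochondrial membrane stays intact. Bcl2, Bcl2l1 (which encodes BCL-XL), Mcl1 and Bcl2a1b (an A1 protein) protect it. Bax and Bak1 form the pores through which cytochrome c escapes and caspases are started. Bcl2l11 (BIM), Bad and Bid carry only the BH3 domain, and they bind the protective proteins, while Bid and Bcl2l11 can also activate Bax and Bak1. In the marrow, Mcl1 is needed for the survival of stem cells and of the myeloid lineage, Bcl2l1 for that of maturing red cells and platelets, and Bcl2 for that of lymphocytes.

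Bcl2l1 was the member with the largest fitted change between KO and WT libraries, so the windows around its annotated starts are shown. RefSeq (GRCm38.p6) gave windows of 250 bases before to 50 bases after a start for 9 of 9 members, 13 windows in all, and 3 of these belong to Bcl2l1, on chromosome 2. The strings searched, on both strands, were the STAT string TTCNNNGAA, the GATA string AGATAA, the C/EBP string TTGCNNAA and a CTCF core string (CC, 3 bases of any kind, AGG, any base, GGC). No match of 1 string overlapped a match of another in these windows. Capitals mark a match.

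Bcl2l1 promoter window 1, chr2:152828440-152828739, minus strand: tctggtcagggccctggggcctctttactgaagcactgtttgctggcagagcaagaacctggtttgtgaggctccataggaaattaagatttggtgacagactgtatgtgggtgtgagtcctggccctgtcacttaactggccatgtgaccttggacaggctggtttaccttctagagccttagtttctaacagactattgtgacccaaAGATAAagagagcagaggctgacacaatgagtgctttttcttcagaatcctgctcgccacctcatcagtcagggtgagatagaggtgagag
Bcl2l1 promoter window 2, chr2:152830668-152830967, minus strand: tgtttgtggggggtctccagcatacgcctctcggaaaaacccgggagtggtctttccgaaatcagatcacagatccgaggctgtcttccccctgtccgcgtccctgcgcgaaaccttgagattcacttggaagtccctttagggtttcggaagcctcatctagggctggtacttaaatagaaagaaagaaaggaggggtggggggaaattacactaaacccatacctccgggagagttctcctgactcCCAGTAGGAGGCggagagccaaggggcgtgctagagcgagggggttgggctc
Bcl2l1 promoter window 3, chr2:152831679-152831978, minus strand: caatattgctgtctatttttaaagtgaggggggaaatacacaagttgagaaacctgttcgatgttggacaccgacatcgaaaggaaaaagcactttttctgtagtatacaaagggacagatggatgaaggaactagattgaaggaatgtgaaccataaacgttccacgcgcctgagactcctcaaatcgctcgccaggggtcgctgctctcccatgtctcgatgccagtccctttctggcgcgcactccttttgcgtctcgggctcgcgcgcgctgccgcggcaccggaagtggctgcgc

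The first window holds the GATA string, at bases 210 to 215, and the second holds the CTCF core string, at bases 249 to 260, while the third holds none of the strings. Among 32851 RefSeq windows of the same length, 11.2% held the GATA string and 3.43% the CTCF core string. Of the 13 windows of the members, 1 held the GATA string, 2 held the CTCF core string (Bcl2l1 and Mcl1), 1 held the C/EBP string (Bid, against 10.8% of all windows) and 0 held the STAT string (against 8.30% of all windows). A match here is a description of the letters. The counts do not separate the starts of a gene, so no window can be tied to the values below.

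Values below are CPM, counts scaled to the library total and then by edgeR's TMM factors. They were set jointly for the 14 GMP and CFU-E libraries, which are 3′ tags after SMART-Seq2 amplification, and apart for the 7 LSK libraries, which cover full transcripts after SMARTer amplification, so LSK levels are not compared with the others. A 3′ tag also does not separate splice forms such as the long and short forms of Bcl2l1. Total counts ran from 28697123 to 32196233 in LSK KO and 22813333 to 32165806 in LSK WT, from 1250683 to 3471881 in GMP KO and 3732769 to 4401993 in GMP WT, and from 3654667 to 5550165 in CFU-E KO and 3737659 to 5210879 in CFU-E WT. In GMP every KO library was thus shallower than every WT library. The 10 CFU-E markers summed to 5350 to 6044 CPM in CFU-E KO and 4835 to 5197 CPM in CFU-E WT, against 177 to 272 CPM in GMP KO and 206 to 253 CPM in GMP WT. Between CFU-E KO and WT their median log2 fold change was -0.04, with 5 of 10 above 0, and the 1 marker called fell. The 10 GMP markers summed to 22607 to 48382 CPM in GMP KO and 37517 to 63240 CPM in GMP WT, against 31.6 to 139 CPM in CFU-E KO and 60.6 to 129 CPM in CFU-E WT. In the LSK libraries, the 10 LSK markers summed to 2912 to 3314 CPM in KO and 2230 to 3263 CPM in WT. The GMP markers there summed to 5873 to 16355 CPM in KO and 11037 to 18897 CPM in WT. Stag2, the targeted gene, fell in LSK KO (log2 fold change -1.20, adjusted p = 0.027, a call lost in 7 of 13 alternative fits) and in CFU-E KO (-1.13, adjusted p = 0.0143), both by edgeR's quasi-likelihood test with Benjamini-Hochberg adjustment over all genes tested, the test used for every adjusted p here. In the GMP libraries labelled KO, Stag2 stood at 101, 109, 88.4 and 154 CPM, against 226, 164 and 113 CPM in those labelled WT. The GMP groups overlapped (log2 fold change -0.47, adjusted p = 0.36), and a 3′ tag need not lie in the deleted part, so Stag2 does not check the GMP labels and directions in GMP are those of the libraries as labelled.

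Among the GMP libraries labelled KO, Bcl2l1 fell. It counted 26, 48, 50 and 30 reads in libraries labelled KO, against 176, 204 and 190 in WT, which is 20.6, 14.9, 15.9 and 10.4 CPM in libraries labelled KO, against 46.4, 67.2 and 57.6 CPM in WT. The groups did not overlap. The means were 15.5 ± 4.17 CPM in libraries labelled KO (SD, n = 4) and 57.1 ± 10.4 CPM in WT (SD, n = 3), with log2 fold change -1.83 (SE 0.258, 95% interval -2.38 to -1.28, adjusted p = 0.00144). Of the 8 members tested in GMP, this was the 1 called past an adjusted p of 0.05, against 1.45% of all 9969 genes tested. Bcl2a1b, the other member, was too low to test.

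The drop of Bcl2l1 was also seen at equal depth and against another member of the same library. Thinned to the depth of the shallowest library, Bcl2l1 counted 26, 16, 22 and 18 reads in GMP libraries labelled KO, against 40, 64 and 61 in WT. Its count was 18.2%, 11.3%, 12.8% and 6.73% of the Mcl1 count in libraries labelled KO, against 42.5%, 43.9% and 47.0% in WT, a ratio that no scaling of libraries can change. It was called in 14 of 14 alternative fits, with log2 fold changes of -1.96 to -1.56 and adjusted p up to 0.0181. Without KO 1, the shallowest library, and KO 4, whose Stag2 lay within the WT range, a choice made after the data were seen, it was -1.82 (adjusted p = 0.00173 by edgeR). In bulk RNA, fewer cells that express a gene and less RNA per cell cannot be told apart, here or in any comparison below.

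**Figure D1:**
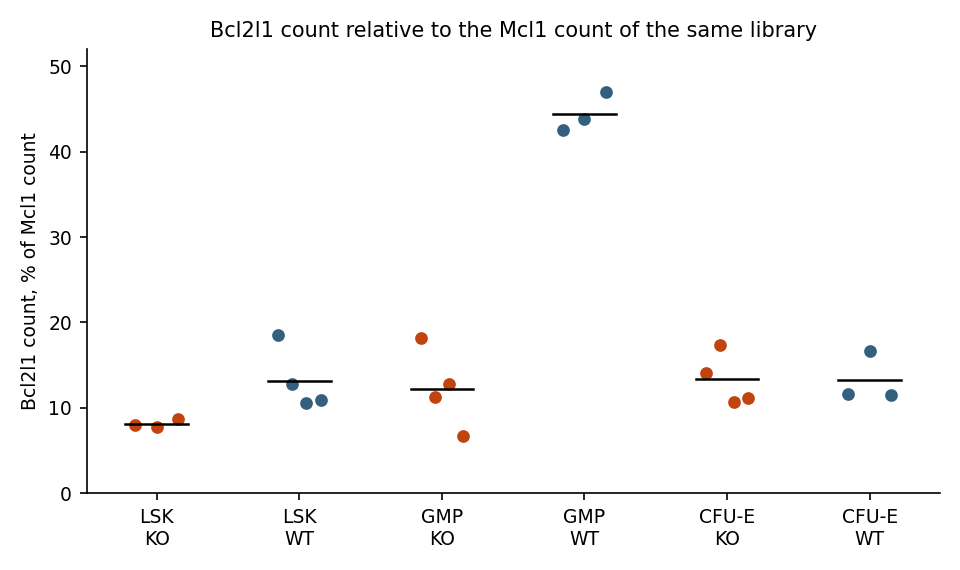
The vertical axis gives the Bcl2l1 count as a percentage of the Mcl1 count in the same library, with libraries as points, group means as bars, and KO left of WT in each population. GMP WT libraries sit at 42.5% to 47.0% and the GMP libraries labelled KO at 6.73% to 18.2%; LSK libraries come from another kit and are not to be set against the rest.

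Transcripts of other myeloid stages moved with Bcl2l1 in GMP. The 10 late neutrophil markers summed to 76547 to 135194 CPM in libraries labelled KO, against 175601 to 237283 CPM in WT, with 1 of 10 fallen past the threshold, a median log2 fold change of -0.68 and none above 0. The 10 monocyte and macrophage markers, 7 of them tested, summed to 1029 to 1154 CPM in libraries labelled KO, against 1935 to 2112 CPM in WT, with 1 of 7 fallen and a median of -0.71. No marker of either list was at 0 in all GMP libraries of a genotype. Their part in the Bcl2l1 result was not tested, and neither was that of depth beyond the thinned counts.

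The other protective members gave no call in GMP. Bcl2 was at 31.7, 29.0, 32.7 and 43.7 CPM in libraries labelled KO, against 26.1, 25.7 and 22.1 CPM in WT, all KO libraries above all WT libraries, yet its log2 fold change of 0.57 ± 0.248 (SE) had an adjusted p of 0.244. Mcl1, a short-lived protein whose transcript was well covered, averaged 131 ± 17.6 CPM in libraries labelled KO (SD, n = 4) and 128 ± 22.6 CPM in WT (SD, n = 3), a log2 fold change of 0.13 (95% interval -0.34 to 0.59). Bcl2l1 and Bcl2 are the 2 of 8 tested members whose KO and WT libraries did not overlap, against 16.8% of all genes tested. Bcl2a1b had 3 reads in GMP KO 2, 1 read in GMP WT 2 and none in the other 5 GMP libraries, where 0 reads allow up to 0.682 to 2.399 CPM (3 reads per library, counting error only).

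The BH3-only members and the pore formers did not pass the test in GMP either. Bcl2l11 was at 15.9 to 18.2 CPM in libraries labelled KO, against 10.8 to 17.0 CPM in WT (log2 fold change 0.36, 95% interval -0.21 to 0.94). Bid was at 85.3 to 126 CPM in libraries labelled KO, against 84.8 to 98.2 CPM in WT (0.26, interval -0.20 to 0.71). Bad was at 192 to 252 CPM in libraries labelled KO, against 247 to 339 CPM in WT (-0.22, interval -0.67 to 0.23). For these BH3-only genes the KO and WT libraries overlapped. Bax was at 68.1 to 114 CPM in libraries labelled KO, against 80.1 to 135 CPM in WT (-0.05, interval -0.58 to 0.48), and Bak1 at 271 to 351 CPM in libraries labelled KO, against 324 to 531 CPM in WT (-0.28, interval -0.75 to 0.20). Each of these intervals includes 0.

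Further genes of the death pathway were taken from lists chosen with earlier results of these data known. In GMP, 0 of 8 tested genes of the wider BCL2 family, 0 of 18 tested caspase pathway genes and 0 of 11 tested upstream regulators were called by edgeR. DESeq2 called 0 of them too, and 1 gene of each list had an unadjusted p under 0.05 by edgeR.

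**Figure D2:**
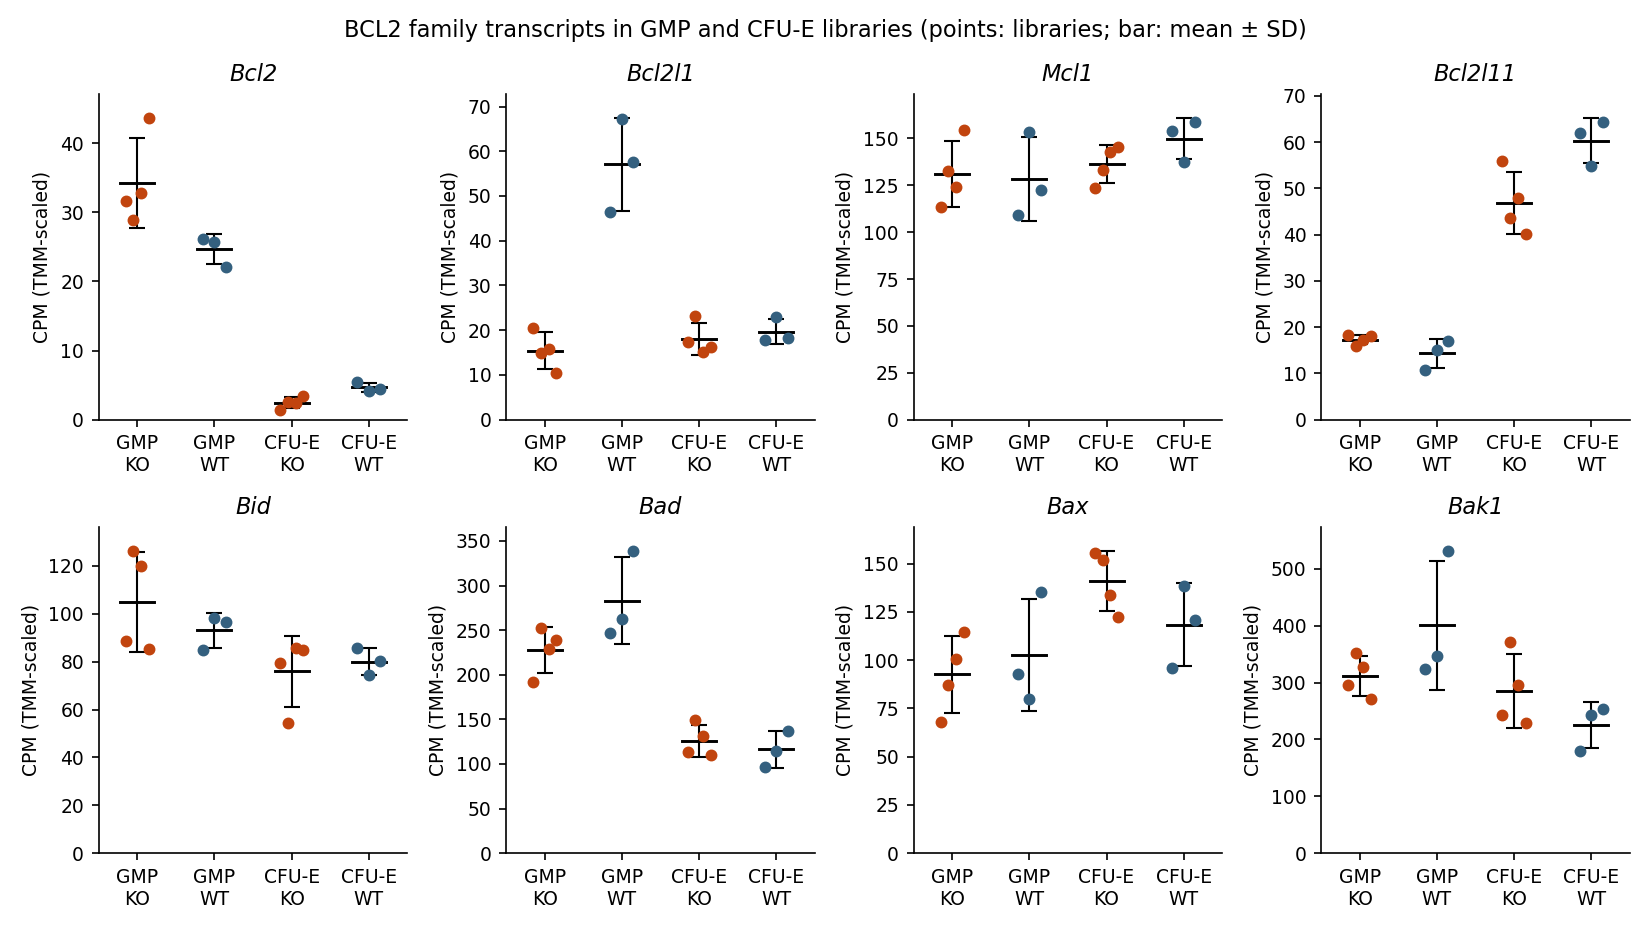
Each panel plots 1 member, with TMM-scaled CPM on a vertical axis from 0 and 1 point per GMP or CFU-E library; bars are means with SD, and KO stands left of WT. Bcl2l1 drops in the GMP libraries labelled KO (10.4 to 20.6 CPM, against 46.4 to 67.2 CPM in WT) and overlaps in CFU-E (15.2 to 23.2 CPM in KO, against 17.8 to 22.8 CPM in WT).

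In CFU-E, 0 of 8 tested members were called between KO and WT, against 1.06% of 10170 genes tested (edgeR, flow cell as a term; 1 member, Bcl2, had an unadjusted p under 0.05, and DESeq2 called none of the 8). Bcl2l1 stood at 17.3, 23.2, 15.2 and 16.3 CPM in CFU-E KO, against 17.8, 22.8 and 18.2 CPM in CFU-E WT. The libraries overlapped, and the log2 fold change of -0.10 had a 95% interval of -0.62 to 0.41, a range that does not reach the -1.83 of GMP. It was -0.25 among the libraries of flow cell A (KO 1, WT 1 and WT 2) and 0.01 among those of flow cell B (KO 2, KO 3, KO 4 and WT 3).

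Bcl2 was scarce in CFU-E and lower in KO without passing the test. It counted 8, 15, 13 and 14 reads in CFU-E KO, against 26, 24 and 18 in CFU-E WT, which is 1.46 to 3.35 CPM in KO, against 4.22 to 5.44 CPM in WT. The groups did not overlap, as was so for 1 of 8 members and for 11.6% of all genes tested. The log2 fold change of -1.11 ± 0.440 (SE) had an adjusted p of 0.378 by edgeR. It was -1.72 among flow cell A libraries and -0.68 among flow cell B libraries.

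The remaining members in CFU-E overlapped between genotypes. Mcl1 was at 123 to 146 CPM in KO, against 137 to 159 CPM in WT (log2 fold change -0.20, 95% interval -0.49 to 0.09). Bcl2l11 was at 40.2 to 55.8 CPM in KO, against 54.8 to 64.3 CPM in WT (-0.31, interval -0.67 to 0.04). Bid, Bad, Bax and Bak1 had log2 fold changes of -0.05, 0.01, 0.29 and 0.23. Bcl2a1b had 0 reads in 7 of 7 CFU-E libraries, which allows up to 0.541 to 0.821 CPM. Of the wider lists, 0 of 9 BCL2 family genes, 0 of 18 caspase pathway genes and 0 of 11 upstream regulators were called by edgeR, with 2 genes of each list at an unadjusted p under 0.05. DESeq2 called 1 of the 18 caspase pathway genes and none of the other 2 lists. Megakaryocyte and platelet transcripts moved with genotype here, summing to 453 to 967 CPM in KO, against 125 to 275 CPM in WT, with 4 of 9 tested markers risen. Their part in the values of Bcl2 was not tested.

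With GMP libraries as labelled, the fitted KO effect on Bcl2l1 differed between the populations by a test of the difference itself. The KO effect in CFU-E minus that in GMP was 1.81 ± 0.365 (log2, SE, 95% interval 1.05 to 2.57, adjusted p = 0.0249), 1 of 8 members, against 0.445% of 11006 genes tested. The call was kept in 12 of 20 alternative fits, with differences of 1.59 to 1.95. It was lost in 8 fits, among them those without CFU-E WT 3 (adjusted p = 0.464), CFU-E KO 1 (0.109), GMP WT 2 (0.101), CFU-E WT 1 (0.0919), GMP WT 3 (0.0541) or CFU-E KO 2 (0.0509), and at equal depth (0.149). The late neutrophil list moved the same way in this comparison, with 10 of 10 differences above 0, 1 of them called, and a median of 1.54. So did the megakaryocyte and platelet list, with 8 of 9 tested differences above 0, 0 called and a median of 1.57. The part of either list in the Bcl2l1 difference was not tested. For Bcl2 the difference was -1.58 ± 0.426 (SE) with an adjusted p of 0.125 by edgeR. The separate fits per population gave KO effects of -1.11 in CFU-E and 0.57 in GMP. The differences come from a joint fit of both populations, so they need not equal the separate effects subtracted. Leaving out 1 library at a time gave -2.28 (without CFU-E WT 3) to -1.19 (without CFU-E KO 1) for Bcl2. The other 6 tested members had differences of -0.59 to 0.58 and no call.

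**Figure D3:**
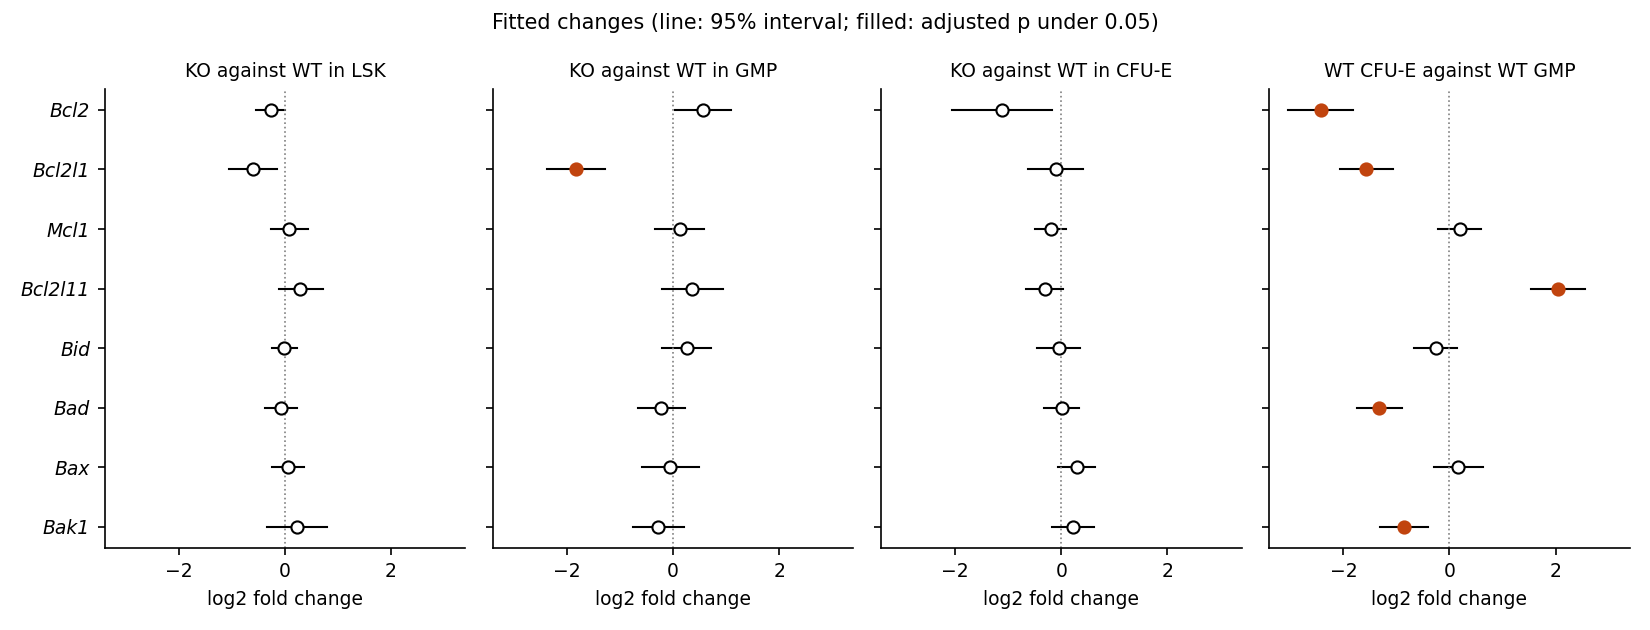
Points give fitted log2 fold changes of 8 members (all but Bcl2a1b), with 95% intervals as lines and filled points where the adjusted p is under 0.05, in 4 comparisons that each have the first-named group on top. In the GMP panel Bcl2l1 is filled, at -1.83; no point is filled in the LSK and CFU-E panels; and the panel of WT CFU-E against WT GMP has 5 filled points, of which Bcl2l11, at 2.04, is above 0.

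In LSK, 0 of 9 tested members were called between KO and WT, against 0.0793% of 17664 genes tested, 14 genes in all (edgeR; 1 member, Bcl2l1, had an unadjusted p under 0.05, and DESeq2 called none of the 9 either). Bcl2l1 was at 19.6, 27.5 and 23.9 CPM in LSK KO, against 47.4, 33.3, 32.9 and 29.8 CPM in LSK WT. All KO libraries were below all WT libraries, yet the log2 fold change of -0.60 ± 0.199 (SE, 95% interval -1.05 to -0.15) had an adjusted p of 0.452. Its count was 7.99%, 7.75% and 8.72% of the Mcl1 count in LSK KO, against 18.6%, 12.8%, 10.5% and 10.9% in LSK WT. Without LSK WT 1, the highest library, the fold change was -0.44. Monocyte and macrophage markers summed to 155 to 609 CPM in LSK KO, against 273 to 907 CPM in LSK WT, with 0 of 9 tested markers called. Megakaryocyte and platelet markers summed to 440.5 to 647.1 CPM in LSK KO, against 326.8 to 415.5 CPM in LSK WT. Of these, 5 of 9 tested were above 0 and 0 were called. The late neutrophil markers had a median log2 fold change of -1.58, with 1 of 10 above 0 and 0 called. The part of these lists in Bcl2l1 was not tested.

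Bcl2 was at 138, 159 and 125 CPM in LSK KO, against 179, 163, 175 and 161 CPM in LSK WT. LSK KO 2 and LSK WT 4 nearly touched, and with scaling factors taken over all genes they were at 159.0 CPM in KO and 157.8 CPM in WT, so the groups then overlapped. The log2 fold change was -0.27 ± 0.120 (SE, adjusted p = 0.647). The B cell markers summed to 4915, 59049 and 12648 CPM in LSK KO 1 to KO 3. In LSK WT 1 to WT 4 they summed to 1382, 10691, 30476 and 11341 CPM, and their part in Bcl2 was not tested. Bcl2l1 and Bcl2 were the 2 of 9 members whose groups did not overlap in LSK, against 7.89% of all genes tested.

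Mcl1 was at 245, 355 and 274 CPM in LSK KO, against 256, 260, 312 and 274 CPM in LSK WT (log2 fold change 0.08). Bcl2l11 was at 26.8, 30.4 and 21.3 CPM in LSK KO, against 24.6, 18.3, 23.8 and 18.6 CPM in LSK WT (0.29, 95% interval -0.12 to 0.71). Bid, Bad, Bax and Bak1 had log2 fold changes of -0.01, -0.07, 0.05 and 0.23, and their groups overlapped. Among the wider lists in LSK, 0 of 15 BCL2 family genes, 0 of 19 caspase pathway genes and 0 of 12 upstream regulators were called by edgeR or DESeq2, and 2, 1 and 0 genes of these lists had an unadjusted p under 0.05 by edgeR.

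Bcl2a1b, the A1 copy among the members, was detected in LSK and varied most between libraries. It counted 23, 28 and 18 reads in LSK KO, against 7, 63, 42 and 90 in LSK WT, so that the KO range lay inside the WT range. Its log2 fold change of -1.31 ± 0.744 (SE, adjusted p = 0.779) became -0.02 without LSK WT 2 and LSK WT 4, a choice made after the data were seen. Those WT libraries also had the most late neutrophil transcript, 8782 and 4660 CPM summed over 10 markers, against 734 to 1808 CPM in LSK KO and 387 and 1508 CPM in the other LSK WT libraries, and its part in Bcl2a1b was not tested. B cell markers summed to 4915 to 59049 CPM in LSK KO and 1382 to 30476 CPM in LSK WT, so lymphoid transcript differed between libraries of a genotype as well. Of the 10 B cell markers, 1 had a log2 fold change above 0 between KO and WT and 0 were called. Their median was -1.40, so the sums do not give the direction of the list. Bcl2a1b has near-identical copies in the mouse genome, among which short reads can be split or dropped, so its counts are uncertain.

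**Figure D4:**
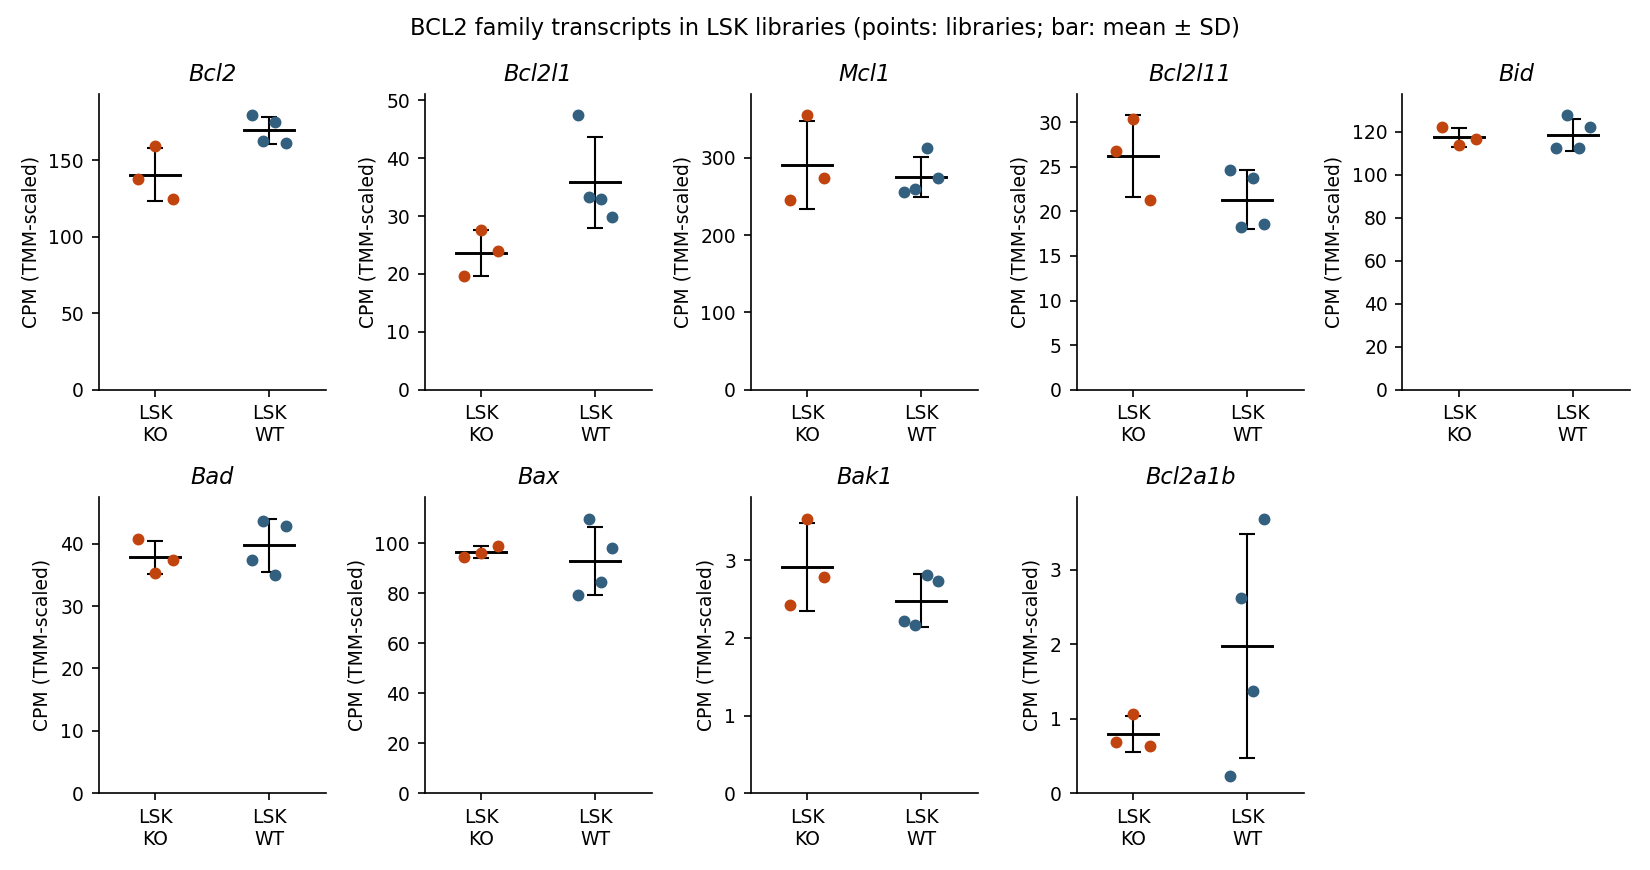
Each panel plots 1 of the 9 members, with TMM-scaled CPM on a vertical axis from 0 and 1 point per LSK library; bars are means with SD, and KO stands left of WT. Bcl2l1 is at 19.6 to 27.5 CPM in KO, against 29.8 to 47.4 CPM in WT, and Bcl2a1b spreads from 0.228 to 3.68 CPM within WT.

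Between WT CFU-E and WT GMP, 5 of 8 tested members differed, where 52.4% of 10329 genes tested did so, a share near which 5 of 8 lies. The libraries of the 2 populations did not overlap for the same number, 5 of 8 members, against 60.2% of all genes tested. All of these calls held in 13 of 13 alternative fits, among them the fit on flow cell A alone.

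The 10 late neutrophil markers summed to 263 to 515 CPM in WT CFU-E, against 175601 to 237283 CPM in WT GMP, and 10 of 10 fell. Their part in the values of the members in this comparison was not tested. Of the protective members, Bcl2 and Bcl2l1 were lower in CFU-E. Bcl2 was at 5.44, 4.22 and 4.44 CPM in WT CFU-E, against 26.1, 25.7 and 22.1 CPM in WT GMP, with log2 fold change -2.43 (SE 0.296, adjusted p = 6.56e-07). Bcl2l1 was at 17.8, 22.8 and 18.2 CPM in WT CFU-E, against 46.4, 67.2 and 57.6 CPM in WT GMP (-1.57 ± 0.238 SE, adjusted p = 1.18e-05). Mcl1 was at 154, 137 and 159 CPM in WT CFU-E, against 109, 153 and 123 CPM in WT GMP. Its log2 fold change of 0.19 had a 95% interval of -0.22 to 0.60, and the populations overlapped.

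Of the BH3-only members, Bcl2l11 rose and Bad fell in CFU-E. Bcl2l11, a member known to be switched on when a survival cytokine is withdrawn, was at 61.9, 54.8 and 64.3 CPM in WT CFU-E, against 10.8, 15.2 and 17.0 CPM in WT GMP (2.04 ± 0.243 SE, adjusted p = 4.49e-07). It was the 1 of 8 members to rise, against 25.0% of all genes tested, while 4 of 8 fell, against 27.3%. Bad, which growth factor signals hold inactive by phosphorylation, was at 96.6, 115 and 137 CPM in WT CFU-E, against 247, 263 and 339 CPM in WT GMP (-1.32 ± 0.204 SE, adjusted p = 1.46e-05). Bid, which is cut by caspase 8, was at 74.3 to 85.5 CPM in WT CFU-E, against 84.8 to 98.2 CPM in WT GMP (-0.26, 95% interval -0.66 to 0.15).

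Of the pore formers, Bak1 fell in CFU-E and Bax did not pass the test. Bak1 was at 180, 243 and 253 CPM in WT CFU-E, against 324, 346 and 531 CPM in WT GMP (-0.86 ± 0.217 SE, adjusted p = 0.00225). Bax was at 95.8, 138 and 121 CPM in WT CFU-E, against 93.0, 80.1 and 135 CPM in WT GMP (0.17, 95% interval -0.29 to 0.64). The Bax libraries of the populations overlapped.

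The wider family and the caspase pathway genes were mixed in direction, while most of the upstream regulators called rose. Of the wider BCL2 family, 8 of 17 genes were tested, of which 3 rose in CFU-E (Bcl2l15 at 1.43, Bbc3, the BH3-only protein PUMA, at 1.28, and Bcl2l13 at 0.66) and 1 fell (Bcl2l2, the protective protein BCL-W, at -1.26). The call of Bcl2l2 was lost in 6 of 12 alternative fits and that of Bcl2l13 in 2 of 13. Of 18 tested caspase pathway genes 6 rose and 6 fell. Risen ones included Casp6 (2.29) and Diablo (1.29), which encodes an inhibitor of IAP proteins, and fallen ones Apaf1 (-1.40), the scaffold of the apoptosome, and Birc3 (-2.06), an IAP protein. Of 12 upstream regulators 7 rose and 1 fell. These shares stand beside 52.4% of all genes tested that differed, 25.0% higher and 27.3% lower in CFU-E. Epor, the erythropoietin receptor, had 418, 236 and 51 reads in WT CFU-E, against 0, 1 and 3 in WT GMP. Its fitted log2 fold change of 6.76 was 5.99 without CFU-E WT 1, 6.10 without GMP WT 1 and 8.02 without GMP WT 3, so its size is uncertain. Other regulators that rose included Gata1, which is known to act on Bcl2l1 in red cell precursors (4.83), and Foxo3, a known activator of Bcl2l11 (1.83). Stat5a (1.24) and Fbxw7, which targets MCL1 protein for destruction (1.09), were also among them. The 1 that fell was Bcl6 (-4.12), a repressor. The median log2 fold change was -0.07 in the wider family, 0.23 in the caspase list and 0.98 in the upstream list, against 0.03 over all genes tested. Gata1 and Epor of the upstream list are also CFU-E markers, so their rise follows from the populations compared.

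**Figure D5:**
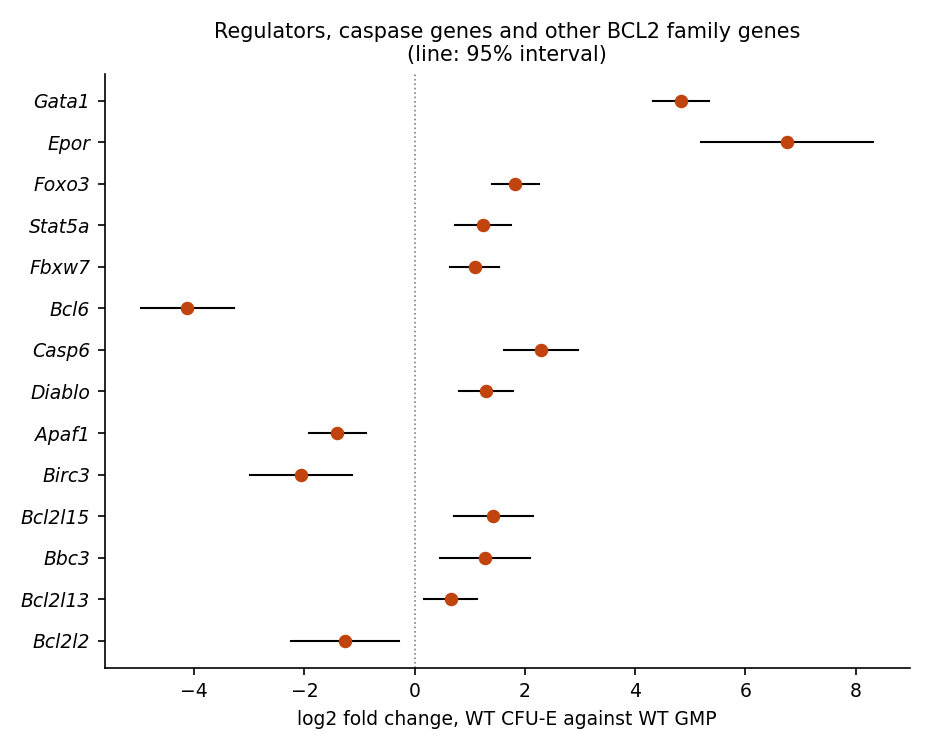
Points give the fitted log2 fold change of WT CFU-E against WT GMP, with 95% intervals as lines, for 6 upstream regulators, 4 caspase pathway genes and 4 further BCL2 family genes, all with an adjusted p under 0.05. Epor at 6.76 and Gata1 at 4.83 lie farthest above 0, and Bcl6 at -4.12 lies farthest below.

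Over the 14 GMP and CFU-E libraries, the profile of log2(CPM + 1) of each member was set against those of 9148 genes with a mean of at least 5 CPM, as a description in which the points share kit, depth and population. Bcl2l1 was most like Ralgps2 (Pearson r = 0.94), Sipa1 (0.93) and Sirt7 (0.91). Bcl2 was most like Fam46a (0.99), and Bcl2l11 most like Mfhas1 (0.99). Bad was most like Vamp8 (0.98) and Bak1 most like Dbnl (0.96), while the best value was 0.91 for Bax, 0.86 for Bid and 0.80 for Mcl1.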

How the data were processed

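The authors deposited whole-number counts per gene with no normalization, 30733 genes by 21 libraries. STAR 2.4, HTSeq 0.6.1, DESeq2 and the mm9 build are named in the submitters' processing notes. Annotation and strand setting were not found there, which leaves overlapping and antisense genes uncertain. Each comparison was fitted in R 4.3.3 with edgeR 4.0.16 (limma 3.58.1): filterByExpr with a minimum count of 10 and minimum total of 15, TMM, the quasi-likelihood test, and Benjamini-Hochberg adjusted p under 0.05 over all genes. KO was compared with WT per population, with a flow cell term in CFU-E and in the interaction. Flow cells come from the descriptions: A holds all GMP, CFU-E KO 1, WT 1 and WT 2. SE is the log2 fold change over the square root of F, and intervals are 95%.

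The members are always named. Of 3 pathway lists, up to 6 genes past the threshold with the smallest p are named per comparison. Some genes that this rule names are not reported here. The 3 genes most like a member may be named. The members and lists were chosen with earlier results of these data known. Alternatives were DESeq2 1.42.0, its size factors, no filter, a minimum count of 30, thinning, a replicate block, flow cells apart and leaving out libraries. The tests were tried on simulated data. No 2 replicates agreed within sampling noise (chi-square per degree of freedom at least 4.03).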

Additional observations from a re-analysis of the deposited data

Results flagged for a closer look

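With GMP libraries as labelled, the fitted effect of the knockout on Bcl2l1 differed between populations by an interaction test. The difference was 1.81 (log2) in CFU-E minus GMP in a joint fit, while the separate fits per population gave -0.10 in CFU-E and -1.83 in GMP. The call was lost in 8 of 20 alternative fits, with adjusted p = 0.464 by edgeR without CFU-E WT 3 and 0.149 at equal depth. Bcl2 had opposite directions in LSK and GMP: every LSK KO library was below every LSK WT library (log2 fold change -0.27), and every GMP library labelled KO was above every WT library (0.57). In LSK the groups overlapped once scaling factors were taken over all genes. The difference between LSK and GMP was not tested, the kits differ, and neither change passed the adjusted threshold within its population. No member tested in a population had a library there far from the others of its group of 4 by Dixon's criterion. Bcl2a1b, too low to test in GMP, had 3 reads in GMP KO 2 and 0 in the other GMP libraries labelled KO.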

How the results depend on the processing

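Bcl2l1 in GMP and the 5 members called between WT CFU-E and WT GMP kept direction and call in all alternatives run. In place of the 14 genes called in LSK, DESeq2 called 342, no filter on low counts gave 38, and leaving out WT 2 and WT 4 gave 1. In place of 145 in GMP, DESeq2 called 300, no filter gave 601, a minimum count of 30 gave 92 and thinning gave 60. In place of 108 in CFU-E, DESeq2 called 182, no filter gave 333 and no flow cell term gave 234. In place of 49 for the interaction, DESeq2 called 134, no filter gave 254 and thinning gave 19. Leaving out 1 library at a time gave 0 to 123 in LSK (0 without WT 3 or KO 2, 2 without KO 1, 4 without KO 3 or WT 4, 9 without WT 2, 123 without WT 1), 38 to 211 in GMP (38 without WT 3, 43 without WT 2, 62 without KO 3), 22 to 143 in CFU-E (22 without WT 3, 53 without KO 1) and 2 to 72 for the interaction (2 without CFU-E WT 3, 16 without CFU-E KO 1, 28 without GMP WT 2, 31 without CFU-E WT 1). The cause of these shifts was not tested. Whether the replicate numbers pair the libraries is not known. Correlations of same-numbered deviations ran from -0.20 to 0.27. In GMP 3 of 6 numbered libraries correlated best with their own number, in CFU-E 3 of 6, and in LSK and the WT comparison 0 of 6. Same-numbered GMP and CFU-E libraries of a genotype also share a suffix in the column headers, whose meaning is not stated. So few libraries cannot settle a pairing, and the main fits have none. In the KO comparisons and the interaction, the replicate block set same-numbered KO and WT libraries of a population together. Pairing by suffix was therefore not fitted in the interaction. The block left 0 calls for LSK and gave 325 for GMP and, with the flow cell term, 31 for CFU-E. With it, Bcl2l1 was at -1.71 in GMP (adjusted p = 1.71e-05, edgeR), and its interaction at 1.62 lost its call (adjusted p = 0.0593, edgeR). Among the 3 KO comparisons and the WT comparison, uncalled members near 0 changed sign. In LSK, Bid was at 0.01 with no filter, 0.00 with the block and 0.08 without WT 2 and WT 4, where Bad was also at 0.08. Within flow cell B, Bcl2l1 was at 0.01 and Bad at -0.07 in CFU-E. Leaving out 1 library, LSK ranges were -0.02 to 0.13 for Bax, -0.04 to 0.03 for Bid and -0.07 to 0.19 for Mcl1; Bax ran from -0.21 to 0.18 in GMP and from -0.00 to 0.39 between WT populations; in CFU-E, Bad ran from -0.07 to 0.09, Bcl2l1 from -0.23 to 0.01 and Bid from -0.10 to 0.04. Bcl2 passed the threshold for the interaction with DESeq2 alone (-1.63, adjusted p = 0.0395). Stag2 lost its call in LSK in 7 of 13 alternatives and in CFU-E in 3 of 15. Depth limits Bcl2 in CFU-E (8 to 26 reads), Bcl2l1 in GMP KO (26 to 50 reads) and Bcl2a1b.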

Other observations

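Bak1 counted 82, 93 and 80 reads in LSK KO and 68, 52, 86 and 67 in LSK WT, 0.991% to 1.02% of the Mcl1 count in KO and 0.832% to 0.998% in WT. In the shallower 3′ libraries its count ran from 374 to 2191 reads. The kits differ, so no comparison was made. Both other A1 copies had fewer reads than Bcl2a1b in every LSK library: Bcl2a1a had 1, 1 and 1 reads in LSK KO and 2, 12, 17 and 18 in LSK WT, and Bcl2a1d had 6, 12 and 12 in LSK KO and 2, 31, 24 and 57 in LSK WT. In all 3 copies the highest count was in LSK WT 4, and neither further copy was called (log2 fold changes -3.60 and -1.66, adjusted p = 0.276 and 0.743, edgeR). In CFU-E KO, Bcl2 and Bcl2l2 had the same counts in the deposited table, 8, 15, 13 and 14 reads in KO 1 to KO 4, while in CFU-E WT Bcl2 had 26, 24 and 18 reads and Bcl2l2 had 16, 7 and 6.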
